A study of Rattus norvegicus with 8 samples.

Results

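10 genes of the endoplasmic reticulum were followed across a toxin experiment in N27 cells, an immortalised line of rat mesencephalic cells. They were taken by name, from every array probe whose gene name was Hspa5, Calr, Canx, Hsp90b1, Pdia3, Pdia4, Herpud1, Dnajb9, Xbp1 or Sdf2l1. All 10 of the 10 genes were on the array, among 26183 gene names, and all 10 passed the filter on dim probes, among 16908 genes tested. RNA was hybridised to single-colour Agilent arrays, 2 for each of 4 groups. The first group was given manganese (Mn) at 150 µM for 48 h. The second was given MPP+ at 250 µM for 48 h, a compound known to block complex I of the respiratory chain. The third is labelled 3-NPA, read here as 3-nitropropionic acid, which is known to inactivate complex II of the same chain. Neither a dose nor a time is given for it. The last was the control, for which no time is given either. The labels name no vehicle for any group and leave unstated whether the 2 arrays of a group came from separate cultures. The p-values therefore cover the spread between these arrays, which may be technical. The cells are 1 immortalised line in culture, and no genotype other than that of the line is given for any group.

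Proteins that enter the secretory pathway fold in the lumen of the endoplasmic reticulum, helped by Hsp70 and Hsp90 family chaperones, by lectin chaperones that hold sugar-bearing chains, and by enzymes that form disulfide bonds. When unfolded chains build up, the sensors PERK, IRE1 and ATF6 start the unfolded protein response, in which XBP1 and ATF6 raise transcription of chaperone genes through a promoter sequence known as the endoplasmic reticulum stress element (ERSE), while ATF4 acts through amino acid response elements (AARE). Among the 10 genes, Hspa5, Calr, Canx, Hsp90b1, Pdia3 and Pdia4 encode folding chaperones or isomerases, Sdf2l1 and Dnajb9 encode partners of BiP, Herpud1 encodes a membrane protein of the machinery that sends misfolded proteins to the proteasome, and Xbp1 encodes the transcription factor itself.

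The promoter sequences are shown because these genes are known for shared stress elements, against which the array values can be read. RefSeq promoter windows (assembly GRCr8, 250 bases before the annotated start and 50 after it) were matched by symbol for 9 of the 10 genes, all but Pdia3. The ERSE was searched on both strands as CCAAT and CCACG with 9 bases between them. It was found in 22 of 33469 windows (0.0657%), and in those of Hspa5, Calr, Canx, Hsp90b1 and Xbp1. A second form, ERSE-II, searched on both strands as ATTGG and CCACG with 1 base between them, was in 17 windows (0.0508%), among them that of Herpud1. The Herpud1 window also held TGATGNAA, searched on both strands as the AARE, which was in 1332 windows (3.98%). TGACGTGG, known as the unfolded protein response element and searched on both strands (199 windows, 0.595%), and TGACGTCA, the cyclic AMP response element, which reads alike on both strands (612 windows, 1.83%), were in none of the 9. No match of any of these was in the windows of Pdia4, Dnajb9 and Sdf2l1. No 2 of these matches in the 9 windows overlapped. Each match is a match of letters in this window only.

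The 250 bases before the start of the 6 genes with a match are given 5′ to 3′ on the strand of the gene, with the letters of the matches in capitals. They lie at chr3:38452766-38453015 (plus strand, Hspa5), chr19:40213117-40213366 (plus strand, Calr), chr10:35157858-35158107 (minus strand, Canx), chr7:23012294-23012543 (minus strand, Hsp90b1), chr14:84604373-84604622 (plus strand, Xbp1) and chr19:10614708-10614957 (minus strand, Herpud1) of GRCr8.
Hspa5: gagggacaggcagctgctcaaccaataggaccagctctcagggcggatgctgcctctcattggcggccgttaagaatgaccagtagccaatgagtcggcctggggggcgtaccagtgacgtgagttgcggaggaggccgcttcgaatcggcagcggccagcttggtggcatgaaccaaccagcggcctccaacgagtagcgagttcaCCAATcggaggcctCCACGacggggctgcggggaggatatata
Calr: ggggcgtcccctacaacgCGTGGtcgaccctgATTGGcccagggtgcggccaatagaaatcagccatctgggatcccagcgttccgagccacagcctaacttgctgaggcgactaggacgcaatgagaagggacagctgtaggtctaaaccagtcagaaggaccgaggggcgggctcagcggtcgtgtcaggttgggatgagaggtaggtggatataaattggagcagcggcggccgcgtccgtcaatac
Canx: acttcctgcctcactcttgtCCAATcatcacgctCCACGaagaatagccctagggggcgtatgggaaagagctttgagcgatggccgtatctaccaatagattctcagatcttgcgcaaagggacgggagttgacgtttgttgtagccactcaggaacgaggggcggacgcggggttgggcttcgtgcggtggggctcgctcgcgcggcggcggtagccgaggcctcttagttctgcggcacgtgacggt
Hsp90b1: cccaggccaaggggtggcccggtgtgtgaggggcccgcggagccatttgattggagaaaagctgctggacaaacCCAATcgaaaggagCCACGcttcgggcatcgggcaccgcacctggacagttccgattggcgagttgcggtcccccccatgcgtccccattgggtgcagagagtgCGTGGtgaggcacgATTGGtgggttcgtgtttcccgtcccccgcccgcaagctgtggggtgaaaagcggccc
Xbp1: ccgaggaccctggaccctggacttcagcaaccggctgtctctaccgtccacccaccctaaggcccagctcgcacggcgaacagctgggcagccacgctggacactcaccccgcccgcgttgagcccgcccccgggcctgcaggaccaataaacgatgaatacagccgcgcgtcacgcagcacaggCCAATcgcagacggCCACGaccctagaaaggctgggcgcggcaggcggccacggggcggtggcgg
Herpud1: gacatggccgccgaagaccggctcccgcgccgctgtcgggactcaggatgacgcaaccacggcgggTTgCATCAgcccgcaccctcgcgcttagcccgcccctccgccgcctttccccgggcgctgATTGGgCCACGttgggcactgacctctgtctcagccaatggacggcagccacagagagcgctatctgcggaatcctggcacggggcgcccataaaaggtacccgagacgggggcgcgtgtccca
The ERSE of Hspa5 spans bases -43 to -25 and that of Xbp1 bases -65 to -47, both in the direction of the gene. Calr holds it at -232 to -214 on the opposite strand and Canx at -230 to -212 in the direction of the gene. Hsp90b1 holds it in each direction, at -176 to -158 along the gene and at -72 to -54 on the opposite strand. In Herpud1 the ERSE-II spans -124 to -114 along the gene and the AARE -184 to -177 on the opposite strand.

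**Figure D1:**
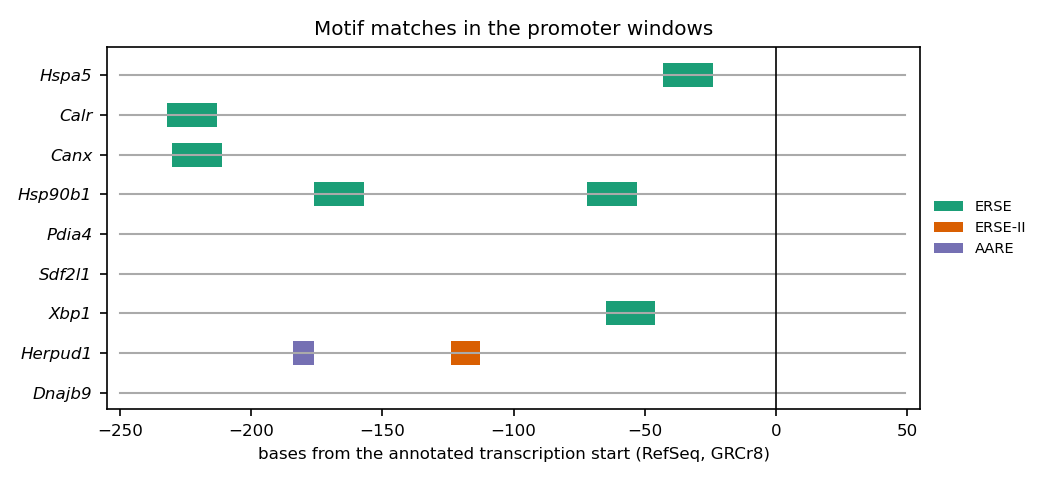
Motif matches in the promoter windows of the 9 matched genes. The x axis is the distance in bases from the annotated transcription start (vertical line), each grey line is a window of 250 bases before to 50 after it, and coloured blocks mark the ERSE, the ERSE-II and the AARE. Of the 9 windows, 5 hold an ERSE, the Herpud1 window holds an ERSE-II and an AARE, and those of Pdia4, Sdf2l1 and Dnajb9 hold none of the 3.

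Each gene had 1 probe of 60 bases with 2 spots on the array, except Sdf2l1, which had 2 probes. All 11 probes were well above background on 8 of 8 arrays, with 0 spots flagged and 0 saturated. The positions of the probes are given in rn4 (RGSC v3.4), and exon or UTR was not assigned. They lie at chr3:13787739-13787798 (Hspa5), chr19:24967507-24967566 (Calr), chr10:35862130-35862189 (Canx), chr7:23334474-23334623 (Hsp90b1), chr3:108236022-108236081 (Pdia3), chr4:75929978-75931486 (Pdia4), chr19:11036709-11036768 (Herpud1), chr6:63583604-63583663 (Dnajb9), chr14:86156913-86156972 (Xbp1) and chr11:85880276-85880335 (Sdf2l1). The probes of Hsp90b1 and Pdia4 span 150 and 1509 bases of the genome, more than their own 60, and each other probe spans 60. The Calr probe is printed because Calr was the one folding chaperone that passed the test with each toxin, and the second Sdf2l1 probe (chr11:85879929-85879988) because its calls differed from those of the first. Lower case marks bases with no special role.
Calr probe: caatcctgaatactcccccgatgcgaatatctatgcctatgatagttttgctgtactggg
Sdf2l1 second probe: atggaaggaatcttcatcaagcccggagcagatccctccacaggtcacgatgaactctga

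The arrays had from 32711 to 41354 of 58717 spots well above background. Levels are log2 processed signals with the 75th percentile of each array set to 0. Levels of different genes come from different probes and are not compared. The arrays shared 1 slide and 1 scan, and each group sat in its own place on the slide, so that place and group cannot be told apart. Signals of the 3-NPA arrays, and of no others, were read out in a second extraction run, per the file headers. That run and 3-NPA therefore cannot be told apart in any comparison with 3-NPA below. Of 12 markers of dopaminergic neurons and neural precursors, 11 were on the array, and 7 were above background on all 8 arrays, among them Th, Nr4a2 and Slc18a2, while Slc6a3, the dopamine transporter, and Foxa2 were above it on none. Their summed signal, in units of the 75th percentile, was 25.3 to 25.4 (Mn), 19.2 to 19.7 (MPP+), 21.3 to 22.4 (3-NPA) and 14.7 to 16.5 (control). Summed markers of astrocytes (3 of 8 above background on all arrays, S100b and Slc1a2 on none) were 3.56 to 3.67 (Mn), 3.32 to 3.52 (MPP+), 7.39 to 7.49 (3-NPA) and 6.85 to 7.21 (control). Those of microglia (4 of 8, C1qa and Ptprc on none) were 0.661 to 0.719 (Mn), 0.415 to 0.477 (MPP+), 0.885 to 0.909 (3-NPA) and 0.590 to 0.685 (control). Those of oligodendrocytes (1 of 8, Olig2 on none) were 0.377 to 0.435 (Mn), 0.367 to 0.395 (MPP+), 0.399 to 0.439 (3-NPA) and 0.413 to 0.450 (control). Those of endothelial cells (2 of 7, Cldn5 and Tek on none) were 0.658 to 0.687 (Mn), 0.615 to 0.623 (MPP+), 1.03 to 1.05 (3-NPA) and 0.728 to 0.777 (control). The part of these markers in the results below was not tested, and in such bulk RNA fewer cells of a type and less RNA per cell cannot be told apart.

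Across the toxins, Herpud1 was higher and Calr lower with each of the 3 toxins, and with 3-NPA Dnajb9 was also higher while Hspa5, Xbp1 and Sdf2l1 were lower. A gene was called at a limma adjusted p below 0.05 over all 16908 genes, with n = 2 arrays in each group and 1 fit of all 8 arrays. With Mn, 1 of the 10 genes rose and 1 fell, where 7.66% of all genes were called (4.5% higher and 3.16% lower). With MPP+, again 1 of 10 rose and 1 fell, against 13.9% of all genes (7.47% higher and 6.47% lower). With 3-NPA, 2 of 10 rose and 4 fell, against 38.3% of all genes (22.3% higher and 16% lower). At an unadjusted p below 0.05, the members numbered 5 of 10 with Mn, 3 of 10 with MPP+ and 8 of 10 with 3-NPA. Of all 16908 genes, 4370 (Mn), 5316 (MPP+) and 8177 (3-NPA) were below that p. The arrays of toxin and control did not overlap for 7 of 10 genes with Mn, 4 of 10 with MPP+ and 10 of 10 with 3-NPA, where the same held for 50.5%, 63.5% and 71.9% of all genes. These 3 comparisons share the 2 control arrays.

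The share of calls that were higher, over all genes, depended on the scaling. Scaling to the 75th percentile, quantile normalization and scaling to the array median gave 58.8%, 73.0% and 69.9% for Mn and 53.6%, 64.5% and 71.5% for MPP+. Normexp background correction gave 39.7% for MPP+. For 3-NPA the share was 58.2% by the 75th percentile and 42.6% by the array median. Keeping dim probes put it at 14.5% (Mn), 16.9% (MPP+) and 29.9% (3-NPA). The median log2 difference of all genes was -0.02 with Mn, 0.02 with MPP+ and 0.05 with 3-NPA. With the median of each array as scale it was 0.06, 0.13 and -0.09. This change of scale moved each difference by the gap between the medians before and after it. With 3-NPA, Hsp90b1 for example went from -0.51 to -0.65. Differences smaller than that gap are relative to the scaling.

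**Figure D2:**
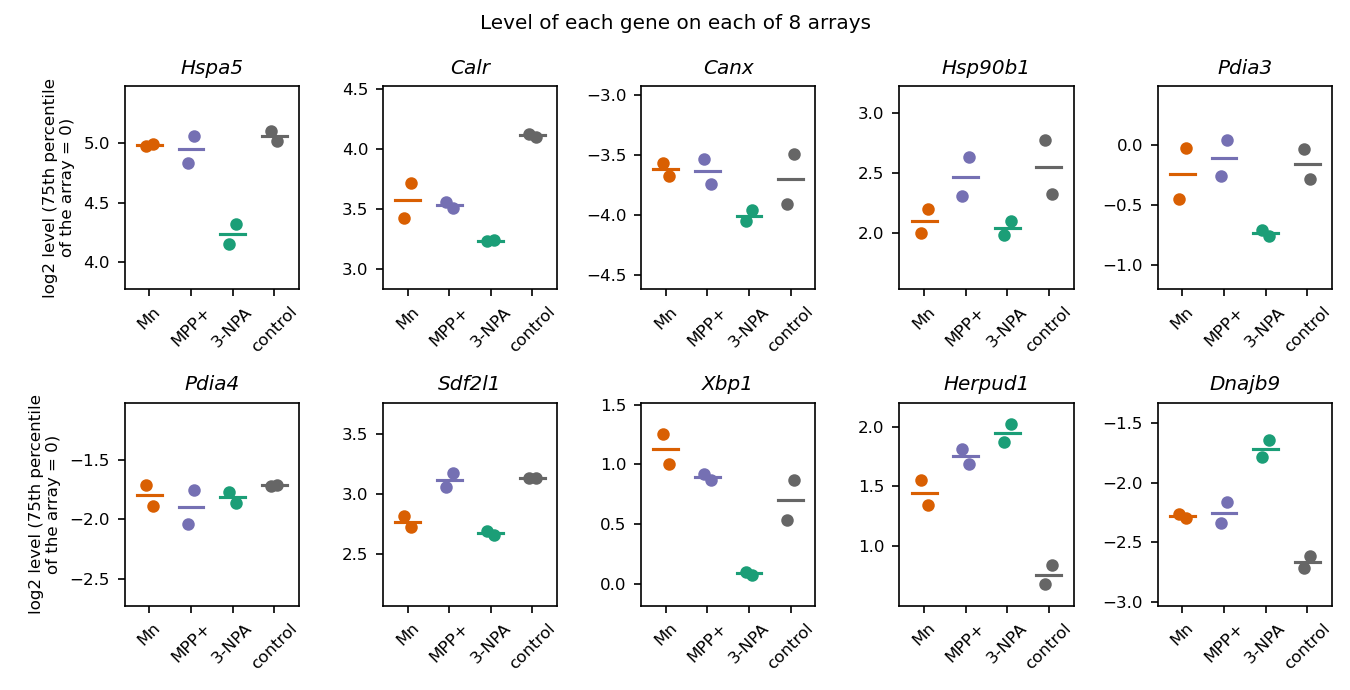
Level of each of the 10 genes on each of 8 arrays. The y axes give the log2 processed signal with the 75th percentile of the array at 0, points are single arrays, horizontal lines are means of 2 arrays, and each panel has a range of its own. Herpud1 sits above control in all 3 toxin groups, Calr sits below it in all 3, and the 3-NPA arrays are the lowest group mean for Hspa5, Calr, Canx, Hsp90b1, Pdia3, Xbp1 and Sdf2l1.

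Herpud1 encodes a membrane protein with a ubiquitin-like domain that takes part in the HRD1 complex, which moves misfolded proteins out of the endoplasmic reticulum for degradation. Its log2 level was 1.55 and 1.35 with Mn, 1.82 and 1.68 with MPP+, and 1.87 and 2.02 with 3-NPA, against 0.68 and 0.84 in control. Every toxin array was above both control arrays. The difference from control was 0.69 ± 0.12 (SE) with Mn (1.61-fold, limma adjusted p = 0.0275), 0.99 ± 0.12 with MPP+ (1.99-fold, limma adjusted p = 0.0063) and 1.18 ± 0.12 with 3-NPA (2.27-fold, limma adjusted p = 0.00117). In order of mean level the groups ran 3-NPA, MPP+, Mn and control. 3-NPA was above Mn by 0.50 (limma adjusted p = 0.0284), while MPP+ and Mn differed by 0.30 ± 0.12 (limma adjusted p = 0.171) and 3-NPA and MPP+ by 0.19 ± 0.12 (limma adjusted p = 0.269), neither of them called. The call with Mn was lost in 9 of 19 alternatives (adjusted p from 0.00884 to 0.115), among them leaving out any 1 array other than the second control and second Mn arrays (0.0601 to 0.0948). That with MPP+ was lost only without the first MPP+ array (0.0535), and that with 3-NPA in none of 18.

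Dnajb9 encodes ERdj4, a J-domain partner of BiP known as a target of spliced XBP1. The log2 level of Dnajb9 was -2.26 and -2.30 with Mn, -2.34 and -2.17 with MPP+, and -1.78 and -1.65 with 3-NPA, against -2.71 and -2.62 in control. All 6 toxin arrays were above both control arrays, and both 3-NPA arrays were above all others. The difference passed the test with 3-NPA, at 0.95 ± 0.10 (1.93-fold, limma adjusted p = 0.00146). It was 0.39 ± 0.10 with Mn (limma adjusted p = 0.0835) and 0.41 ± 0.10 with MPP+ (limma adjusted p = 0.0526), neither called. The probe was dim, with a signal of 161 to 413 units where the 75th percentile of the arrays was 1026 to 1279. The MPP+ difference was called in 3 of 19 alternatives, and the 3-NPA call held in all 18.

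Hspa5 encodes BiP, the Hsp70 of the endoplasmic reticulum, which binds unfolded chains and keeps the stress sensors inactive, and which is widely used as a readout of the unfolded protein response. The log2 level of Hspa5 was 4.97 and 4.99 with Mn, 4.83 and 5.06 with MPP+, and 4.15 and 4.33 with 3-NPA, against 5.10 and 5.02 in control. Both 3-NPA arrays were below the 6 others. The Mn arrays lay just below both control arrays, and the MPP+ arrays overlapped them. The difference was -0.82 ± 0.11 with 3-NPA (1.76-fold lower, limma adjusted p = 0.0033), and this call held in all 18 alternatives. It was -0.07 ± 0.11 with Mn (limma adjusted p = 0.722) and -0.11 ± 0.11 with MPP+ (limma adjusted p = 0.545), neither called, and the sign with Mn turned under normexp, quantile and median scaling. Hspa5 is the gene with the ERSE nearest to its start among the 9 windows, as printed above.

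Calr encodes calreticulin, a lumenal lectin chaperone that also holds calcium. Its log2 level was 3.43 and 3.72 with Mn, 3.56 and 3.51 with MPP+, and 3.23 and 3.24 with 3-NPA, against 4.13 and 4.10 in control. All 6 toxin arrays were below both control arrays. The difference was -0.54 ± 0.11 with Mn (1.46-fold lower, limma adjusted p = 0.0449), -0.58 ± 0.11 with MPP+ (limma adjusted p = 0.0260) and -0.88 ± 0.11 with 3-NPA (1.84-fold lower, limma adjusted p = 0.00255). The call with 3-NPA held in all 18 alternatives, whereas that with Mn was lost in 12 of 19 (adjusted p from 0.0133 to 0.187), among them leaving out any 1 array but the second Mn array (0.0851 to 0.111). That with MPP+ was lost in 8 of 19, among them leaving out any 1 control, MPP+ or 3-NPA array (0.0603 to 0.163) and scaling by the median (0.0518).

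Canx encodes calnexin, the membrane-bound counterpart of calreticulin. Canx had a log2 level of -3.56 and -3.67 with Mn, -3.53 and -3.74 with MPP+, and -4.05 and -3.96 with 3-NPA, against -3.91 and -3.49 in control. The 3-NPA arrays were the lowest of the 8, and the Mn and MPP+ arrays lay between the 2 control arrays. None of its differences was called, at 0.08 ± 0.16 with Mn (limma adjusted p = 0.777), 0.06 ± 0.16 with MPP+ (0.820) and -0.31 ± 0.16 with 3-NPA (0.178). The probe was the dimmest of the 10, with a signal of 56.3 to 117 units, and its 2 control arrays differed by more than any of these differences.

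Hsp90b1 encodes GRP94, the Hsp90 of the endoplasmic reticulum. Hsp90b1 had a log2 level of 2.00 and 2.20 with Mn, 2.31 and 2.63 with MPP+, and 1.98 and 2.10 with 3-NPA, against 2.78 and 2.33 in control. The Mn and 3-NPA arrays were below both control arrays and the first MPP+ array was just below the lower of them. The difference was -0.45 ± 0.19 with Mn (limma adjusted p = 0.205), -0.08 ± 0.19 with MPP+ (0.805) and -0.51 ± 0.19 with 3-NPA (0.0806), none called. The 3-NPA difference was called in 3 of 18 alternatives.

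Pdia3 encodes ERp57, a disulfide isomerase that works with calreticulin and calnexin. Its log2 level was -0.45 and -0.03 with Mn, -0.26 and 0.04 with MPP+, and -0.71 and -0.76 with 3-NPA, against -0.04 and -0.28 in control. The 3-NPA arrays were the lowest of the 8, and those of Mn and MPP+ overlapped control. The difference with 3-NPA was -0.58 ± 0.18 (1.49-fold lower, limma adjusted p = 0.0521), just outside the threshold, and it was called in 7 of 18 alternatives. It was -0.08 ± 0.18 with Mn (0.813) and 0.05 ± 0.18 with MPP+ (0.878).

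Pdia4 encodes ERp72, a further disulfide isomerase. Pdia4 had a log2 level of -1.71 and -1.89 with Mn, -2.03 and -1.75 with MPP+, and -1.77 and -1.86 with 3-NPA, against -1.72 and -1.71 in control. The MPP+ arrays differed from each other by more than the group means did. No difference was called, at -0.09 ± 0.13 with Mn (limma adjusted p = 0.704), -0.18 ± 0.13 with MPP+ (0.378) and -0.10 ± 0.13 with 3-NPA (0.557).

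Sdf2l1 encodes a lumenal protein that works with BiP and its J-domain partners. Its log2 level by the brighter probe was 2.81 and 2.72 with Mn, 3.06 and 3.17 with MPP+, and 2.69 and 2.66 with 3-NPA, against 3.13 and 3.13 in control. The Mn and 3-NPA arrays lay below the MPP+ and control arrays. The difference was -0.46 ± 0.09 with 3-NPA (1.37-fold lower, limma adjusted p = 0.00989), -0.36 ± 0.09 with Mn (0.0640, not called) and -0.01 ± 0.09 with MPP+ (0.932). The second probe had 1 spot and gave 2.18 and 2.34 with Mn, 2.75 and 2.76 with MPP+, and 2.05 and 1.94 with 3-NPA, against 2.75 and 2.68 in control. Both probes put 3-NPA below control, the second by -0.72 (limma adjusted p = 0.00325 over probes). The 3-NPA call of the brighter probe was lost without the first (0.0587) or the second (0.0646) 3-NPA array, and the Mn difference was called in 4 of 19 alternatives.

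Xbp1 encodes the transcription factor whose messenger RNA is spliced by IRE1 under stress. The probe reads 1 stretch of the transcript, and the files do not say which spliced form it detects. Its log2 level was 1.26 and 1.00 with Mn, 0.92 and 0.87 with MPP+, and 0.10 and 0.08 with 3-NPA, against 0.53 and 0.87 in control. Both 3-NPA arrays were the lowest of the 8 and both Mn arrays were the highest. The difference was -0.61 ± 0.14 with 3-NPA (1.53-fold lower, limma adjusted p = 0.0197), 0.43 ± 0.14 with Mn (0.135, not called) and 0.19 ± 0.14 with MPP+ (0.419, not called). The 3-NPA call was lost without the second control array (0.0597) or without the first (0.0879) or second (0.0904) 3-NPA array.

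**Figure D3:**
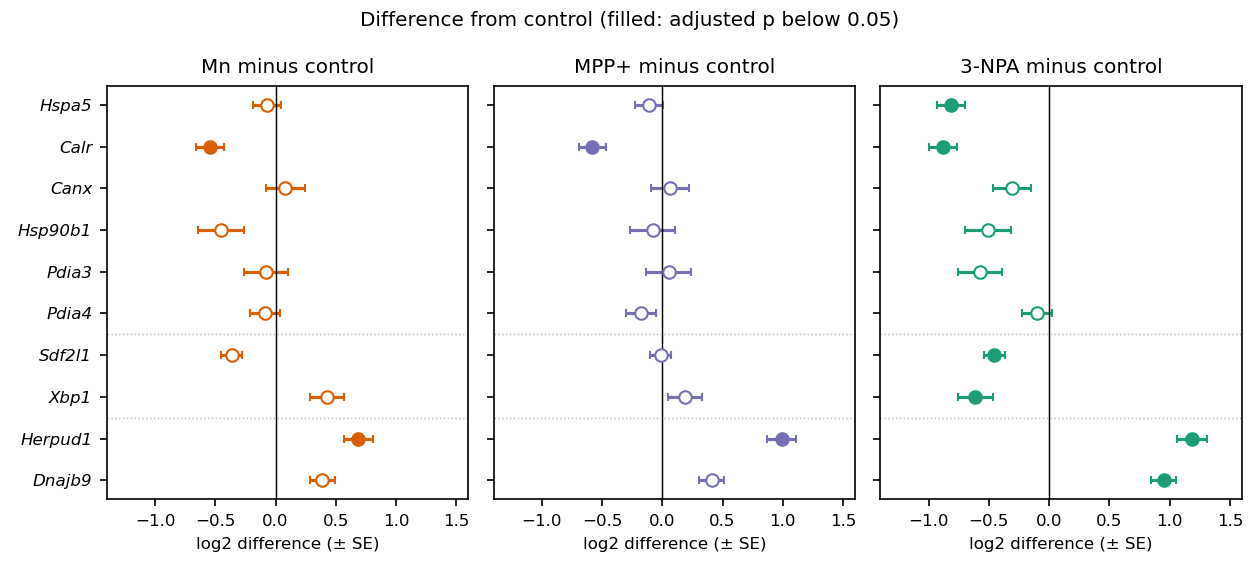
Difference of each gene from control with each toxin. The x axes give the log2 difference of means of 2 arrays with its limma standard error, and filled points have a limma adjusted p below 0.05 over all genes tested. Herpud1 is filled and right of 0 in all 3 panels, Calr is filled and left of 0 in all 3, and with 3-NPA the 6 folding chaperones, Sdf2l1 and Xbp1 lie left of 0 while Herpud1 and Dnajb9 lie near 1.

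Set side by side, the 6 folding chaperones and isomerases had a median log2 difference of -0.08 with Mn (-0.54 to 0.08), where Herpud1 differed by 0.69 and Dnajb9 by 0.39. With MPP+ their median was -0.10 (-0.58 to 0.06), beside 0.99 for Herpud1 and 0.41 for Dnajb9. With 3-NPA it was -0.54 (-0.88 to -0.10), beside 1.18 for Herpud1 and 0.95 for Dnajb9, where the median of all genes was 0.05. Of the 6, 1 fell with Mn (Calr), 1 with MPP+ (Calr) and 2 with 3-NPA (Hspa5 and Calr), where 3.16%, 6.47% and 16% of all genes did. With any of the 3 toxins 0 of the 6 rose by limma, where 4.5%, 7.47% and 22.3% of all genes did. Nor did any of the 6 rise at an unadjusted p below 0.05. Of all 16908 genes, 4370 (Mn), 5316 (MPP+) and 8177 (3-NPA) were below that p, in either direction. The 3-NPA values of the 4 other than Hspa5 and Calr were not called. With the median of each array as the scale, the median of the 6 was -0.01 with Mn, 0.02 with MPP+ and -0.69 with 3-NPA. Array by array, taken from the control mean of each gene, the median of the 6 was -0.19 and -0.12 (Mn), -0.24 and -0.02 (MPP+), -0.56 and -0.53 (3-NPA) and 0.03 and -0.03 (control). Herpud1 was above the highest of the 6 on each of the 6 toxin arrays, and so was Dnajb9.

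**Figure D4:**
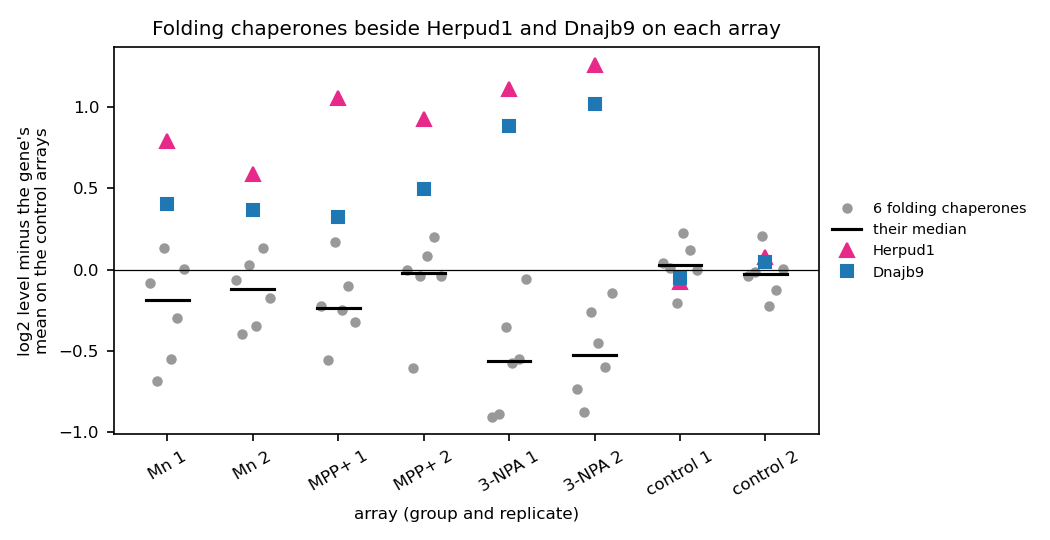
Folding chaperones beside Herpud1 and Dnajb9 on each array. The y axis gives the log2 level minus the mean of the gene on the control arrays, grey points are the 6 folding chaperones with a bar at their median, triangles are Herpud1 and squares Dnajb9. On both 3-NPA arrays all 6 chaperones lie below 0 and Herpud1 and Dnajb9 lie at 0.88 to 1.26, and on the Mn and MPP+ arrays the chaperones lie on both sides of 0.

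Between toxins, 3-NPA stood apart from Mn and MPP+ in several of the genes. Against Mn, where 28.6% of all genes were called (16.9% higher and 11.7% lower), 3-NPA was higher for Herpud1 (0.50 ± 0.12, limma adjusted p = 0.0284) and Dnajb9 (0.56 ± 0.10, 0.0116) and lower for Hspa5 (-0.74 ± 0.11, 0.00615) and Xbp1 (-1.04 ± 0.14, 0.0043). Against MPP+, where 31% were called (18.1% higher and 12.9% lower), it was higher for Dnajb9 (0.54 ± 0.10, limma adjusted p = 0.0128) and lower for Hspa5 (-0.71 ± 0.11, 0.00708), Xbp1 (-0.80 ± 0.14, 0.00997), Sdf2l1 (-0.44 ± 0.09, 0.0138) and Pdia3 (-0.63 ± 0.18, 0.047). Between MPP+ and Mn, 0 of the 10 were called by limma, where 9.1% of all genes were. An unadjusted p below 0.05 was found for 2 of 10 (Herpud1 and Sdf2l1) and for 4781 of all 16908 genes. The largest differences in size between MPP+ and Mn were 0.37 ± 0.19 for Hsp90b1 and 0.35 ± 0.09 for Sdf2l1 (limma adjusted p = 0.0624). The second Sdf2l1 probe gave 0.50 (limma adjusted p = 0.0374 over probes).

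Of these calls, those of Hspa5 and Xbp1 against Mn held in all 18 alternatives. With the median as scale the differences of Herpud1 against Mn (0.28, adjusted p = 0.215), Dnajb9 against Mn (0.34, 0.106) and Dnajb9 against MPP+ (0.28, 0.152) were not called. Leaving out single arrays ended the call of Herpud1 against Mn for the second Mn array and each MPP+ and 3-NPA array (0.0570 to 0.151). It ended that of Dnajb9 against Mn for the second 3-NPA array (0.0798) and against MPP+ for the first MPP+ (0.0871) or second 3-NPA array (0.0818). It ended that of Hspa5 against MPP+ for the second MPP+ (0.0542) or first 3-NPA array (0.0540), and those of Xbp1 (0.0588 to 0.0621) and Sdf2l1 (0.0562 to 0.108) against MPP+ for any MPP+ or 3-NPA array. The Pdia3 call was lost in 9 of 18 alternatives, among them leaving out any control, MPP+ or 3-NPA array (0.0541 to 0.231).

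Other genes of the same organelle were described from 7 lists, whose shares of called genes stand beside the 7.66% (Mn), 13.9% (MPP+) and 38.3% (3-NPA) of all genes. Among 16 tested sensors and factors of the unfolded protein response, 1 rose with Mn, 6 with MPP+ and 6 with 3-NPA, and 0, 0 and 4 fell, which is 6.25%, 37.5% and 62.5% of them called. Their median differences were 0.18, 0.32 and 0.19. Of the genes of the 3 sensors, Eif2ak3 (PERK) and Atf6 were called with none of the toxins, and Ern1 (IRE1) was not among the genes tested. Eif2ak3 differed by 0.17 (Mn), -0.17 (MPP+) and -0.09 (3-NPA), and Atf6 by 0.12, 0.61 and 0.16. Ddit3, which encodes the stress factor CHOP, rose with all 3 toxins, by 0.55 ± 0.11 with Mn (limma adjusted p = 0.0428), 2.47 ± 0.11 with MPP+ (0.000594) and 1.74 ± 0.11 with 3-NPA (0.000323). Atf4, the factor known to drive Ddit3, rose by 0.94 ± 0.10 with MPP+ (limma adjusted p = 0.00383) and 0.60 ± 0.10 with 3-NPA (0.00546). Nfe2l2, the antioxidant factor NRF2, rose by 0.64 ± 0.10 with MPP+ (limma adjusted p = 0.0137) and 0.50 ± 0.10 with 3-NPA (0.0119). Bbc3, which encodes the cell death protein PUMA, rose by 0.86 ± 0.12 with 3-NPA (limma adjusted p = 0.00353), while Creb3, a membrane-bound factor, was lower by -0.64 ± 0.09 (0.00289). The count with Mn became 3 higher after quantile normalization and 0 with a replicate block or without the first control array, the first Mn array or any 1 MPP+ or 3-NPA array. The count of 6 higher with MPP+ became 2 without either MPP+ array and 3 without the first control or first 3-NPA array.

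The share of other chaperones called was 5.26% (Mn), 10.5% (MPP+) and 15.8% (3-NPA) of 19, where 7.66%, 13.9% and 38.3% of all genes were called. Of these 19 other lumenal chaperones and co-chaperones, 0 rose and 1 fell with Mn, 1 rose and 1 fell with MPP+, and 1 rose and 2 fell with 3-NPA (medians -0.12, -0.04 and -0.12). Creld2, a stress-induced lumenal protein, was lower with Mn (-0.46 ± 0.08, limma adjusted p = 0.0263) and with 3-NPA (-0.55 ± 0.08, 0.00364). Mlec, the lectin malectin, was lower with 3-NPA (-1.05 ± 0.08, limma adjusted p = 0.000546), and Clgn, the calnexin-like calmegin, was higher (1.15 ± 0.11, 0.000852). With MPP+, Calr3, a relative of calreticulin, was higher (0.72 ± 0.13, 0.0199) and Sdf2, a relative of Sdf2l1, lower (-0.40 ± 0.08, 0.0295). With the median of each array as scale, 6 of the 19 fell with 3-NPA and 0 with Mn or MPP+, and 4 fell with 3-NPA under normexp correction. The gene that fell with Mn was not called without the first control array, the first Mn array or any 1 MPP+ or 3-NPA array, and 1 rose with Mn without either MPP+ array. With MPP+ the count that rose became 0 without the first control or second MPP+ array, and the count that fell became 0 without any 1 control, MPP+ or 3-NPA array. With 3-NPA 2 rose without the first control array or either MPP+ array, and 4 fell without the second control array.

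Of 22 other disulfide and proline isomerases, 1 fell with Mn (Qsox1, -0.37 ± 0.08, limma adjusted p = 0.0498) and 0 rose. With MPP+, 2 rose and 0 fell, and with 3-NPA 6 rose and 3 fell (medians 0.04, 0.22 and 0.08). The shares called were 4.55% (Mn), 9.09% (MPP+) and 40.9% (3-NPA), beside 7.66%, 13.9% and 38.3% of all genes. Pdia5, a disulfide isomerase, rose by 0.84 ± 0.15 with MPP+ (limma adjusted p = 0.0204) and 1.02 ± 0.15 with 3-NPA (0.00398). Tmx4, a membrane thioredoxin-like protein, rose by 0.80 ± 0.14 with MPP+ (0.0189) and 1.13 ± 0.14 with 3-NPA (0.00217), and Qsox1, a sulfhydryl oxidase, rose by 0.73 ± 0.08 with 3-NPA (0.00155). Median scaling gave 4 higher with MPP+ and 6 lower with 3-NPA. The count higher with MPP+ was 0 without either MPP+ array, 1 without the first control array and 5 without either Mn array. Qsox1 was not called lower with Mn when any 1 array was left out, and 1 gene rose with Mn without the second control array. With 3-NPA it gave 1 lower without the first and 0 without the second 3-NPA array.

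Herpud1 works in the removal of misfolded proteins, and 36 other genes of that process were tested. Of these, 0 rose and 1 fell with Mn, 2 rose and 4 fell with MPP+, and 5 rose and 8 fell with 3-NPA (medians -0.04, 0.09 and -0.12). That is 2.78% (Mn), 16.7% (MPP+) and 36.1% (3-NPA) of them called, beside 7.66%, 13.9% and 38.3% of all genes. Derl3, a derlin of the retrotranslocation machinery, was lower with MPP+ (-1.45 ± 0.11, limma adjusted p = 0.00189) and 3-NPA (-1.62 ± 0.11, 0.000334). Vimp, now named Selenos, which binds p97, was lower with Mn (-0.53 ± 0.12, 0.0481) and 3-NPA (-1.395 ± 0.12, 0.00062). Ufd1l, now Ufd1, a p97 cofactor, was lower with 3-NPA (-1.21 ± 0.09, 0.000431). Ube2g2, a ubiquitin-conjugating enzyme (-0.54 ± 0.08, 0.0120), and Vcp, p97 itself (-0.52 ± 0.09, 0.0170), were lower with MPP+. Vcp was also lower with 3-NPA (-0.82 ± 0.09, limma adjusted p = 0.0013). Under normexp correction 7 fell with MPP+, and with the median as scale 2 rose with 3-NPA. With MPP+ 0 rose without any 1 MPP+ or 3-NPA array and 1 without either control array, while 1 fell without either MPP+ array and 2 without the first 3-NPA array. With 3-NPA the 5 that rose became 2 without any 1 MPP+ or 3-NPA array, and the 8 that fell became 5 without the first 3-NPA array. The count of 1 lower with Mn became 2 without the second control array and 0 without any 1 Mn, MPP+ or 3-NPA array.

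The next 2 lists cover the entry of proteins and the addition of sugars. With 3-NPA their shares of called genes were 39.1% and 46.4%, beside 38.3% of all genes called and 16% called lower. Of 23 genes of translocation and signal peptide processing, 0 rose and 0 fell with Mn or MPP+ by limma. At an unadjusted p below 0.05, 4 were lower with Mn, and 6 were lower and 1 higher with MPP+. Of all 16908 genes, 4370 (Mn) and 5316 (MPP+) were below that p, in either direction. With 3-NPA 9 of the 23 fell and 0 rose (39.1% called), and the medians were -0.10 (Mn), -0.10 (MPP+) and -0.33 (3-NPA). Among those that fell were Sec61a1, the channel subunit (-1.44 ± 0.15, limma adjusted p = 0.00119), and the signal peptidase subunits Sec11a (-0.50 ± 0.08, 0.00612) and Spcs1 (-0.72 ± 0.12, 0.00625). Of 28 genes of N-glycosylation and glycan trimming, 1 fell with Mn, 1 rose and 1 fell with MPP+, and 1 rose and 12 fell with 3-NPA (medians -0.03, 0.07 and -0.30). That is 3.57% (Mn), 7.14% (MPP+) and 46.4% (3-NPA) of them called, beside 7.66%, 13.9% and 38.3% of all genes. Dad1, a subunit of the oligosaccharyltransferase, was lower with each toxin (-0.42 ± 0.09 with Mn, -0.70 ± 0.09 with MPP+ and -0.84 ± 0.09 with 3-NPA, limma adjusted p = 0.0437, 0.00654 and 0.00117). Alg8, a glucosyltransferase (-0.82 ± 0.09, 0.00165), and Pgm3, of the sugar nucleotide pathway (-0.68 ± 0.08, 0.00221), were lower with 3-NPA, and Alg3, a mannosyltransferase, was higher with MPP+ (0.56 ± 0.08, 0.0118). The 9 lower translocation genes with 3-NPA became 3 without the first 3-NPA array, and the range over left-out arrays was 3 to 11. The 12 lower N-glycosylation genes became 5 without the first 3-NPA array and 6 without the second 3-NPA or the second MPP+ array. With Mn 0 of the N-glycosylation genes fell, Dad1 included, without either control array, the first Mn array or any 1 MPP+ or 3-NPA array. The other counts of these lists against control were 0 to 2 whichever array was left out.

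Of 19 genes of calcium handling in the endoplasmic reticulum, 2 rose with Mn, 2 rose and 1 fell with MPP+, and 7 rose and 1 fell with 3-NPA (medians 0.14, 0.29 and 0.02). The shares called were 10.5% (Mn), 15.8% (MPP+) and 42.1% (3-NPA), beside 7.66%, 13.9% and 38.3% of all genes. Stim1, the lumenal calcium sensor, rose by 0.69 ± 0.09 with Mn (limma adjusted p = 0.0128), 0.48 ± 0.09 with MPP+ (0.0252) and 1.03 ± 0.09 with 3-NPA (0.000775). Atp2a3, a calcium pump, rose by 0.61 ± 0.09 with Mn (0.0152) and 1.06 ± 0.09 with 3-NPA (0.000613). Rcn2, a lumenal calcium-binding protein, rose by 0.66 ± 0.11 with 3-NPA (0.00589), and with MPP+ Rcn1, its relative, rose by 0.54 ± 0.13 (0.0411) while Ryr3, a calcium release channel, was lower by -1.21 ± 0.21 (0.0178). The number that rose with 3-NPA was 3 with the median as scale and 4 under normexp, and with MPP+ it was 5 under normexp, quantile or median scaling. With 3-NPA 3 rose without any 1 MPP+ or 3-NPA array and 4 without the second Mn array. With MPP+ 0 rose without the second control array or any 1 MPP+ or 3-NPA array and 1 without either Mn array, and 0 fell without either MPP+ array. With Mn 0 rose without the first Mn array, and 1 without the second Mn, second MPP+ or first 3-NPA array. With the median as scale, the list medians changed sign for other lumenal chaperones (0.07) and translocation (0.01) with MPP+, for other isomerases (-0.06) and calcium handling (-0.12) with 3-NPA, and for degradation (0.04) and N-glycosylation (0.05) with Mn. Quantile normalization turned that of N-glycosylation with Mn (0.000829) and normexp that of calcium handling with 3-NPA (-0.02).

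**Figure D5:**
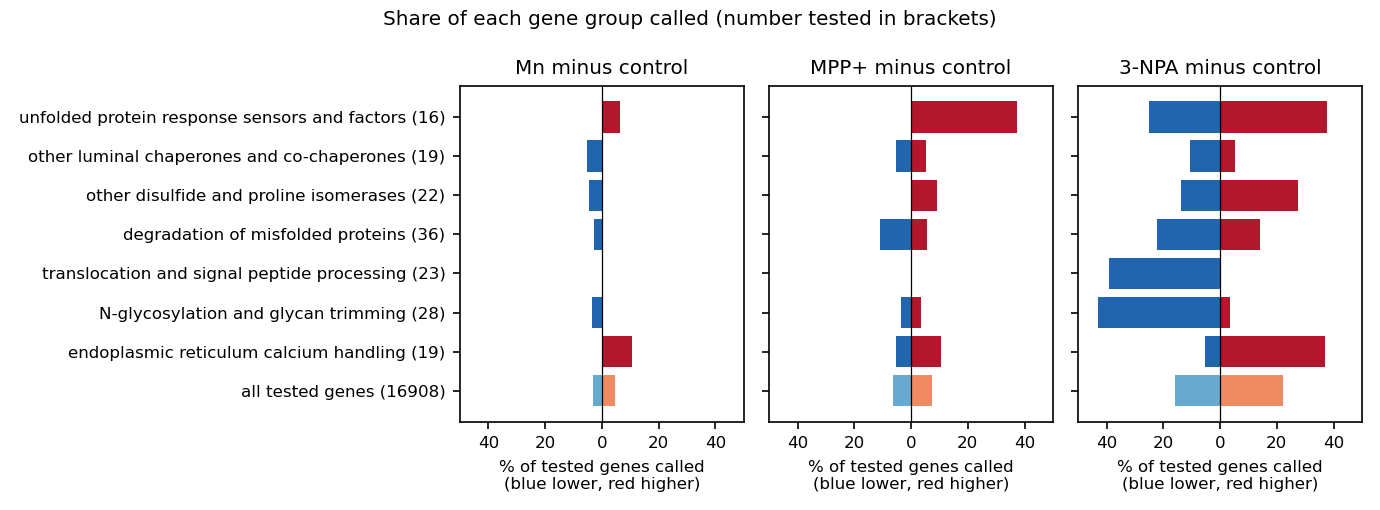
Share of each of 7 gene lists of the endoplasmic reticulum called with each toxin, beside all tested genes. The x axes give the percentage of tested genes called, with genes lower than control to the left of 0 and genes higher to the right, and the number tested is in brackets. The bars for translocation and N-glycosylation run to the left with 3-NPA (9 of 23 and 12 of 28 genes), and those for sensors and factors run to the right with MPP+ (6 of 16). These 3 counts ran from 3 to 11, 5 to 12 and 2 to 7 when 1 array was left out.

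The genes with a symbol whose levels followed Hspa5 most closely over the 8 arrays were Slc37a4 (Pearson r = 0.989), Dhx9 (0.987) and Taf6 (0.986). For Herpud1 they were Dydc1 (0.995), Erlin1 (0.994) and Mgmt (0.992). These correlations describe 8 arrays that fall into 4 groups and share 1 slide, and so many genes were searched that high values are to be found for most patterns.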

How the data were processed

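RNA of N27 cells was labelled with Cy3 and hybridised to 8 single-colour arrays, per the labels' protocols. The deposited scanner files give intensity, extracted with Agilent Feature Extraction 11.5.1.1, per the file headers: a processed signal with background subtracted, without normalization between arrays. A deposited value table on a log2 scale, whose tool, centring and further changes are not given in the sources used here, was set against the scanner files, with a correlation over probes of at least 0.9966 per array. Its columns had medians from -4.38 to -3.99 and 75th percentiles near 0, and it served as an alternative.

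The mean of the log2 processed signal over the unflagged spots of each of 30328 probes was taken (39 others had every spot flagged on an array), and the 75th percentile of each array was set to 0. A probe was kept if over 0.5 of its spots were well above background on both arrays of any group (19460 probes). Where several probes of a gene were kept, the brightest was used, which left 16908 genes. All 8 arrays entered 1 fit with limma 3.58.1 (R 4.3.3) of group means with moderated variances. It had 4 residual degrees of freedom, to which the prior added 2.06. The Benjamini and Hochberg adjustment ran over all genes within each of 6 comparisons. The script was tested on simulated data. With 2 arrays against 2, the smallest exact permutation p is 0.333, so none is given. The number of arrays limits the precision.

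The 10 genes, the lists and the tests were chosen with earlier results of these data known. Named genes were the 10, up to 3 called genes per list and toxin by smallest p, and the 3 genes most correlated with Hspa5 and with Herpud1. Others named beside a count were chosen after their values were seen. Promoters come from RefSeq (GRCr8), and 1 of the 10 was not matched.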

Additional observations from a re-analysis of the deposited data

How the results depend on the processing

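The alternatives were normexp background correction (offset 50), quantile normalization, the median of each array as scale, the deposited value table, keeping all probes or those bright on all 8 arrays, averaging probes of a gene, trend and robust variances, only the 4 arrays compared, a replicate block and leaving out each array. A fit without the 3-NPA arrays, that is on 6 arrays, was added after seeing the data. Over the 10 genes and 6 comparisons, 968 values kept direction and side of the threshold, 67 lost a call, 33 gained one and 42 changed sign. All changes of sign were in differences that were not called. The number of the 10 genes called with Mn became 1 under quantile or median scaling and 0 with only the 4 arrays compared, a replicate block or the 6 arrays. With MPP+ it became 1 with median scaling or the 6 arrays, and between MPP+ and Mn it became 1 with brightness required on all 8 arrays, averaged probes or trend and robust variances. Leaving out single arrays gave 0 to 2 (Mn), 0 to 2 (MPP+), 4 to 7 (3-NPA), 0 to 0 (MPP+ against Mn), 2 to 5 (3-NPA against Mn) and 1 to 6 (3-NPA against MPP+). Calls were also gained against control. Sdf2l1 was called with Mn with all probes kept, brightness required on all 8 arrays, averaged probes or trend and robust variances. Dnajb9 was called with MPP+ with all probes kept, brightness required on all 8 arrays or quantile normalization. Hsp90b1 and Pdia3 were both called with 3-NPA under median scaling or trend and robust variances. The cause of these changes was not tested.

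The labels do not say that replicate numbers pair the arrays. Deviations of same-numbered arrays correlated at -0.02 to 0.10 between groups, except 0.50 between Mn and 3-NPA. With a replicate block, limma called 997 genes for Mn, 2046 for MPP+ and 6294 for 3-NPA against control, against 1295, 2357 and 6474 without it. The block ended the Mn calls of Herpud1 (0.69, adjusted p = 0.0524) and Calr (-0.54, 0.0682) and the Pdia3 call between 3-NPA and MPP+ (-0.63, 0.0605), and no other call of the 10.

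Over all genes, no filter on dim probes gave 7047 (Mn), 8834 (MPP+), 11924 (3-NPA) and 580 (MPP+ against Mn) calls, of which 14.5%, 16.9%, 29.9% and 34.7% were higher. Only the 4 arrays compared gave 271 (Mn), 1058 (MPP+) and 409 (MPP+ against Mn), the 6 arrays gave 640, 1303 and 737, and trend and robust variances gave 2349 between MPP+ and Mn, where 1538 were called. Leaving out single arrays gave 596 to 1597 (Mn), 474 to 2431 (MPP+), 3457 to 6733 (3-NPA), 340 to 1669 (MPP+ against Mn), 2207 to 5280 (3-NPA against Mn) and 2287 to 5731 (3-NPA against MPP+). The share of these calls that were higher, with the median as scale, was 33.2% for 3-NPA against Mn and 27.8% for 3-NPA against MPP+, where it was 59.1% and 58.4%, and the median difference of all genes was then -0.16 and -0.23.

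Changes of sign under normexp were 0.00158 (Hspa5, Mn), 0.00988 (Pdia3, Mn), 0.00203 (Hsp90b1, MPP+), -0.0768 (Canx, MPP+), 0.0192 (Sdf2l1, MPP+), -0.0673 (Dnajb9, MPP+ against Mn) and 0.000846 (Pdia4, 3-NPA against Mn). Under quantile normalization they were 0.0362 (Hspa5, Mn), 0.0113 (Sdf2l1, MPP+), 0.000614 (Canx, MPP+ against Mn) and -0.00396 (Pdia4, 3-NPA against MPP+). With the median as scale they were 0.00118 (Hspa5, Mn), 0.0301 (Hsp90b1, MPP+), 0.0979 (Sdf2l1, MPP+), 0.0194 (Canx, MPP+ against Mn), -0.0606 (Herpud1, 3-NPA against MPP+) and -0.18 (Pdia4, 3-NPA against MPP+), and with averaged probes 0.0137 (Sdf2l1, MPP+). Leaving out single arrays turned signs within these ranges: for Mn, Canx -0.12 to 0.29, Pdia3 -0.29 to 0.13 and Pdia4 -0.17 to 0.00354, and for MPP+, Hspa5 -0.23 to 0.00107, Canx -0.14 to 0.27, Hsp90b1 -0.31 to 0.14, Pdia3 -0.10 to 0.20 and Sdf2l1 -0.0691 to 0.0411. Between MPP+ and Mn they were Hspa5 -0.15 to 0.0737, Calr -0.18 to 0.11, Canx -0.12 to 0.0855, Pdia3 -0.0815 to 0.34, Pdia4 -0.24 to 0.0467 and Dnajb9 -0.0633 to 0.11. For 3-NPA they were Hsp90b1 -0.16 to 0.0388 and Pdia4 -0.10 to 0.0722 against Mn, and Pdia4 -0.0630 to 0.22 against MPP+.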

Other observations

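Outside the 10 genes, 16 other named genes held the ERSE in their promoter window, and 12 of them were tested. They were chosen after the data were seen. By limma adjusted p below 0.05 over all genes, 0 rose and 1 fell with Mn, 1 rose and 1 fell with MPP+, and 3 rose and 3 fell with 3-NPA. Of all genes tested, 7.66% (Mn), 13.9% (MPP+) and 38.3% (3-NPA) were called. With 3-NPA, Ero1lb, a partner oxidase of the disulfide isomerases, Zfand2a, a heat shock and arsenite responsive gene, and Ppm1l, a protein phosphatase, were higher, while Creld2, Derl3 and Hnrnpa3, an RNA-binding protein, were lower. Their median log2 difference with 3-NPA was 0.05, where that of all genes was 0.05.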
